A study of Mus musculus with 4 samples.

Results

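The genes described here are those of cholesterol synthesis and of its control by the sterol regulatory element binding proteins (SREBPs) and the liver X receptors (LXRs). They comprise 29 listed genes, chosen by name from the pathway with earlier results of these data known. Of these, 27 were measured among 19938 genes in all. Acat2 and Nr1h2 are named but had no probe set with a single gene symbol in the array annotation used here. Whole bone marrow of C57BL/6 mice with leukemia driven by the MLL-AF9 fusion oncogene was profiled on gene arrays. There were 2 arrays of marrow labelled Hes1 null (Hes1-/-) and 2 of marrow labelled wild type (Hes1+/+), and MLL-AF9 was common to all 4. Hes1 is a transcriptional repressor induced by Notch signalling, and the comparison asks what its loss changes in these leukemias. No age, sex or deletion scheme is given in the labels. Leukemic and remaining host cells were not separated, so fewer cells of a type and less RNA per cell cannot be told apart for any gene below.

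Cells make cholesterol from acetyl-CoA through mevalonate, isoprenoid diphosphates, squalene and a series of sterols. When membrane sterol is low, the escort protein Scap carries SREBPs from the endoplasmic reticulum to the Golgi, where they are cleaved into active transcription factors, and Insig proteins hold Scap back when sterol is plentiful. SREBP2, encoded by Srebf2, mainly drives cholesterol synthesis, while SREBP1, encoded by Srebf1, mainly drives fatty acid synthesis. Oxysterols activate the LXRs, which induce cholesterol export and Srebf1. In marrow, these transporters are known in mice for restraining the growth of stem and progenitor cells.

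Promoter sequences are shown for members on both sides of this control, to let the letters be read beside the array values that follow. RefSeq promoters (build GRCm38.p6) matched 24 of the 29 genes by symbol. Fdps, Fdft1, Sqle, Stard4 and Abcg1 had none there, so the motif counts leave these genes out. The 250 bases before each gene start were searched on both strands. A gene with several annotated starts counted if any of its windows matched. The motifs were the sterol element core TCACNCCAC, the NF-Y motif CCAAT, the E box CACGTG, the SP1 motif GGGCGG and the LXR direct repeat, AGGTCA followed after 4 bases by AGGTCA. A looser sterol pattern, ATCACNNCA, was added after the sequences had been read. NF-Y and SP1 are general factors known to bind beside SREBPs at sterol-responsive promoters. The 200 bases before the gene start are printed 5′ to 3′ on the strand of the gene, with every match in capitals. The stretches are chr13:119690151-119690350 (plus strand) for Hmgcs1, chr13:8885406-8885605 (plus) for Idi1, chr5:4104698-4104897 (minus) for Cyp51, chr8:64733579-64733778 (minus) for Msmo1, chr15:82147069-82147268 (plus) for Srebf2, chr4:53159896-53160095 (minus) for Abca1 and chr13:45389542-45389741 (plus) for Mylip.
Hmgcs1: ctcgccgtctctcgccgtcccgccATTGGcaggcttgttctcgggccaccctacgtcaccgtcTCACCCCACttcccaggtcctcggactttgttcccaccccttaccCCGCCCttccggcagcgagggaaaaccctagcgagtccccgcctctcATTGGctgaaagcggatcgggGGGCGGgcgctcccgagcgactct
Idi1: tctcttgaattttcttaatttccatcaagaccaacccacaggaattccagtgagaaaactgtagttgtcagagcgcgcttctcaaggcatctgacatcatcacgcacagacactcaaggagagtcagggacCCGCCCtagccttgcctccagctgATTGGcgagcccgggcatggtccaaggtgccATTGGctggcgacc
Cyp51: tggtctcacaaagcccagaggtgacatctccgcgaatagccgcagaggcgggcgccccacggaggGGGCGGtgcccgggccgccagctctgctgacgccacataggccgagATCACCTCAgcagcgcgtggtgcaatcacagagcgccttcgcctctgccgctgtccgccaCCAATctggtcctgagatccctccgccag
Msmo1: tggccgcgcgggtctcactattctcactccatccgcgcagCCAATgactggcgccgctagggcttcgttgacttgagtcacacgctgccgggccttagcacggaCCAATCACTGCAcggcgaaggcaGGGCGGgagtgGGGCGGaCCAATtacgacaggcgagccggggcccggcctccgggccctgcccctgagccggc
Srebf2: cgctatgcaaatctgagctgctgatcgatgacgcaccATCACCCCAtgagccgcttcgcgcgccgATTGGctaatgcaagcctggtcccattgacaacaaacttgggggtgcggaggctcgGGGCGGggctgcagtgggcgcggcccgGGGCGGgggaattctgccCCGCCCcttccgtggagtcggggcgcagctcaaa
Abca1: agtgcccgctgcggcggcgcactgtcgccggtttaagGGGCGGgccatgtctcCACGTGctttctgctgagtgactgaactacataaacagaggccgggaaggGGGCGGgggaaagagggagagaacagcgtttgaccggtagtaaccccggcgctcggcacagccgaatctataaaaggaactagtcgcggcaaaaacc
Mylip: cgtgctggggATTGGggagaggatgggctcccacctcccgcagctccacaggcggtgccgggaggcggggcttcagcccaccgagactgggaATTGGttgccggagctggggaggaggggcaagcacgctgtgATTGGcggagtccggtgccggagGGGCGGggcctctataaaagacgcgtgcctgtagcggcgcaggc

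NF-Y and SP1 motifs were present in most of these promoters. The NF-Y motif was present in 19 of the 24 member promoters and in 14 of the 15 promoters of biosynthesis enzymes, against 38.8% of the 15614 tested genes with a promoter in the table and 37.5% of all 27025 genes there. Mvk carried it 5 times, and Hmgcs1, Hsd17b7, Insig2, Msmo1 and Mylip carried it 3 times each. The SP1 motif was present in 21 of 24 member promoters, against 49.3% of tested genes and 35.4% of all genes in the table. The sterol element core occurred in 1 member promoter, that of Hmgcs1, starting at position -137 from the gene start. It occurred in 1.2% of tested genes and 1.22% of all genes. The looser pattern occurred in Cyp51, Msmo1 and Srebf2, and in 2.16% of tested genes and 2.64% of all genes. In Msmo1 it overlapped an NF-Y motif, the only overlap of different motifs in the member windows. The E box was found in 6 member promoters, Abca1 among them, and in 8.11% of tested genes and 6.86% of all genes. The LXR direct repeat was found in 0 member windows and in 4 of all 27025 genes. Only its exact letters were searched, with no looser form, so a repeat with other letters would be missed. A match is a stretch of letters and does not show a bound site, and a missing match does not show that none is there.

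**Figure D1:**
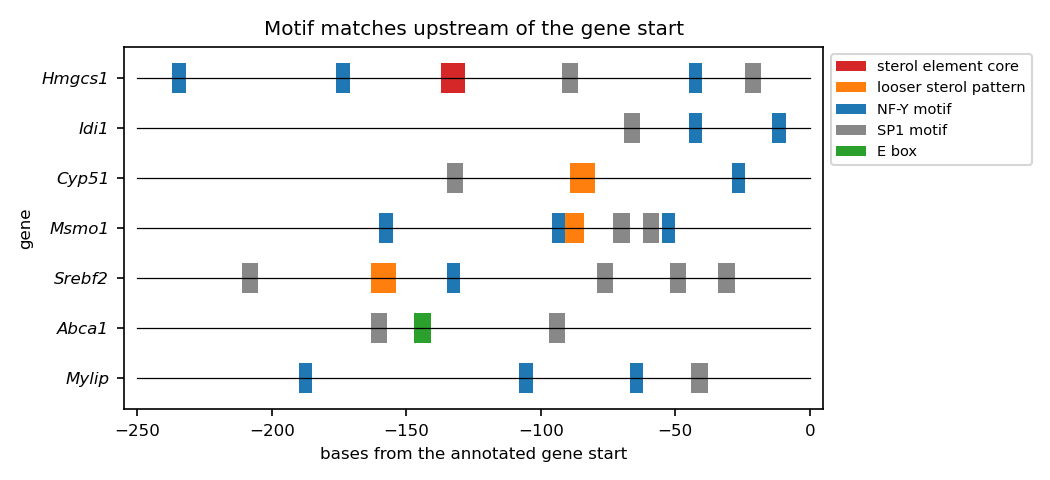
Motif matches in the 250 bases before the annotated start of 7 member genes. The horizontal axis is the distance from the gene start in bases, each row is a gene, and coloured blocks are matches on either strand, drawn to length. NF-Y motifs appear in every row except Abca1, and the sterol element core in Hmgcs1 alone.

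Levels are given on the log2 scale of the deposited intensities, and each difference subtracts the wild-type mean from the Hes1-null mean and stands with its standard error (SE; 2 arrays per genotype). Hes1 itself lay at 5.43 and 5.84 on the Hes1-null arrays, against 5.59 and 5.79 on the wild-type arrays, so Hes1 levels cannot serve as a check of the labels, and the arrays are named by their label only. The leukocyte markers Ptprc, Itgam and Spi1 lay at 9.37 or above on every array. The Hes1-null arrays differed more from each other than the wild-type arrays did, with 683 genes at least 2-fold apart, against 109 within wild type. Xist lay at 11.7 on Hes1-null replicate 1 and at 7.25 on Hes1-null replicate 2, against 12.0 and 11.8 in wild type. The lowest level of any member on any array was 5.55, and the highest of 4 Y-linked genes was 4.09. The labels do not say that samples came from separate animals, so the p-values measure the spread between these samples, which may be technical.

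Most genes of cholesterol synthesis had a lower mean in Hes1-null marrow, and the sterol export genes and Mylip had a higher one. On Hes1-null replicate 2 the enzyme median was -0.45 from the wild-type mean, against 0.009 over all genes. For Hes1-null replicate 1 it was -0.034, against -0.035 over all genes. The export genes and Mylip were also further from wild type on replicate 2. The 17 measured biosynthesis enzymes had a median difference of -0.29, against -0.02 over all genes tested, and 15 of them had a negative difference, as did 53.6% of all genes. The export genes Abca1 and Abcg1 and the ligase gene Mylip had a median difference of 0.87. By limma, 0 of the 27 members passed an adjusted p of 0.05, which 0.145% of all genes passed. At an unadjusted p of 0.05 by limma, 6 members were lower and 2 higher, against 4.78% and 3.51% of all genes. These 8 members make 29.6% of those measured, against 8.29% of all genes in either direction. On the arrays, 10 members had both Hes1-null arrays under both wild-type ones and 5 had them above, 37.0% and 18.5% of members, against 20.6% and 17.4% of all genes. The share of members standing higher was thus near that of all genes. The members were chosen with earlier results of these data known, so none of these shares is a test.

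**Figure D2:**
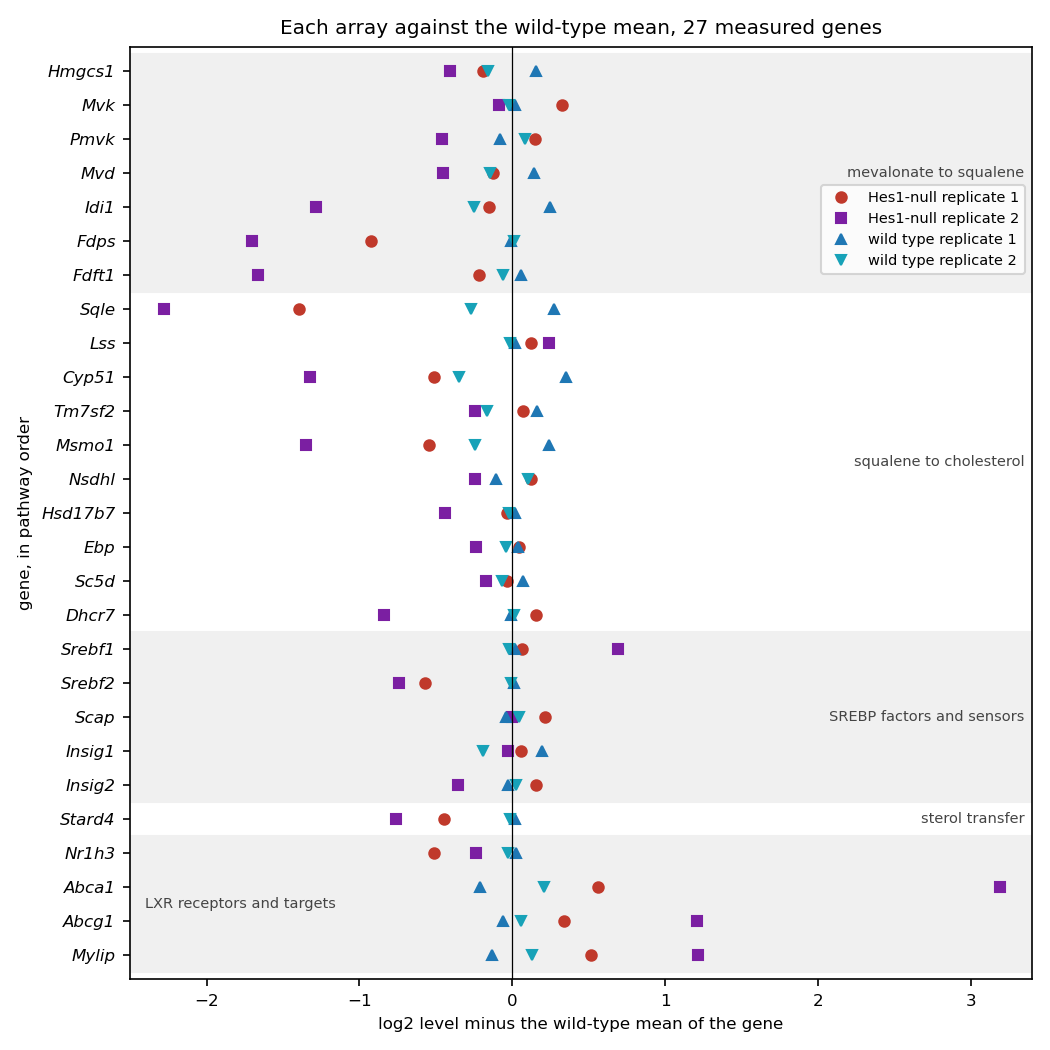
Log2 level of the 27 measured genes on each of the 4 arrays, minus the wild-type mean of the gene, in pathway order from top to bottom. Points are single arrays and shaded bands separate the role groups. Squares for Hes1-null replicate 2 lie to the left for most enzymes, as far as -2.28 for Sqle, and to the right for Abca1, at 3.19.

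In the early pathway, from acetyl-CoA units to squalene, Fdps and Fdft1 stood furthest below wild type. Fdps, which encodes farnesyl diphosphate synthase, lay at 9.62 and 8.85 on the Hes1-null arrays, against 10.54 and 10.56 on the wild-type arrays. The genotypes did not overlap, and the wild-type arrays were nearly equal. The difference was -1.31 ± 0.27 (95% interval -2.00 to -0.63, 2.48-fold lower), and limma gave an unadjusted p of 0.00391 (adjusted p = 0.239). Fdft1, the gene of squalene synthase, which commits the pathway to sterols, lay at 9.13 and 7.69 in Hes1-null marrow, against 9.41 and 9.29 in wild type. Hes1-null replicate 1 was close to wild type, and replicate 2 was 3.17-fold below the wild-type mean. The mean difference of -0.94 ± 0.47 had an adjusted p of 0.688 by limma. Another Fdft1 probe set gave a difference of -1.06.

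Idi1, encoding the isomerase that activates the isoprenoid unit, had the same split between the Hes1-null arrays. Its levels were 7.73 and 6.60 in Hes1-null marrow, against 8.13 and 7.63 in wild type, and replicate 1 overlapped wild type. The difference was -0.72 ± 0.41 (adjusted p = 0.733 by limma), and its other probe set gave -0.77. Hmgcs1, whose promoter holds the sterol element core printed above, encodes the cytosolic synthase of HMG-CoA. It lay at 7.79 and 7.57 in Hes1-null marrow, against 8.14 and 7.82 in wild type. The groups did not overlap by a narrow margin, and the difference of -0.30 ± 0.19 was similar in size to the gap of 0.31 between the wild-type arrays. Mvd, the decarboxylase gene, gave -0.29 ± 0.20, with overlapping arrays. The 2 kinase genes of the pathway did not separate either, with Mvk at 0.12 ± 0.20 and Pmvk at -0.15 ± 0.23. On Hes1-null replicate 2 all 7 measured genes of this stretch were below both wild-type arrays, where 40.0% of all genes were. On replicate 1 this held for 3 of 7, where 44.3% of all genes were.

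In the sterol stretch after squalene, the epoxidase, demethylase and methyl oxidase genes were low and most others lay near wild type. Sqle, the gene of squalene epoxidase, a rate-limiting step of the sterol branch, lay at 6.60 and 5.71 on the Hes1-null arrays, against 8.26 and 7.72 on the wild-type arrays. Both Hes1-null arrays were below both wild-type arrays by a wide margin, 2.63-fold and 4.85-fold under the wild-type mean for replicates 1 and 2. The difference was -1.84 ± 0.35 (95% interval -2.71 to -0.96, 3.57-fold lower, unadjusted p = 0.00253, adjusted p = 0.208 by limma), the most negative among the 27 members.

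Msmo1, encoding the methylsterol monooxygenase, lay at 7.51 and 6.71 in Hes1-null marrow, against 8.30 and 7.81 in wild type. The groups did not overlap, and the difference was -0.95 ± 0.32 (unadjusted p = 0.0302, adjusted p = 0.537 by limma). Cyp51, the lanosterol demethylase gene, lay at 6.56 and 5.75, against 7.42 and 6.72 in wild type. Here Hes1-null replicate 1 was only just below wild-type replicate 2, and the wild-type arrays themselves were 0.70 apart. The difference was -0.91 ± 0.35 (unadjusted p = 0.0456, adjusted p = 0.595 by limma). Both promoters hold the looser sterol pattern printed above, which was added after these sequences had been read and so tests nothing here.

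Dhcr7, the gene of a terminal reductase of the pathway, was low on a single array. It lay at 8.51 and 7.52 in Hes1-null marrow, against 8.35 and 8.37 in wild type, so replicate 1 was above both wild-type arrays and replicate 2 below both. The difference was -0.34 ± 0.34 (adjusted p = 0.872 by limma). Hsd17b7, a sterol ketone reductase gene, gave -0.24 ± 0.20 with arrays that did not overlap, although Hes1-null replicate 1 was 0.03 below the wild-type mean. Lss, the gene of lanosterol synthase, which acts directly after Sqle, lay at 7.84 and 7.96 in Hes1-null marrow, against 7.73 and 7.70 in wild type. It was the only enzyme gene with both Hes1-null arrays above both wild-type arrays, at a difference of 0.18 ± 0.16. The reductase gene Tm7sf2, the dehydrogenase gene Nsdhl, the isomerase gene Ebp and the desaturase gene Sc5d had differences between -0.10 and -0.06, each smaller than its SE, and arrays that overlapped. Nsdhl and Ebp lie on chromosome X.

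**Figure D3:**
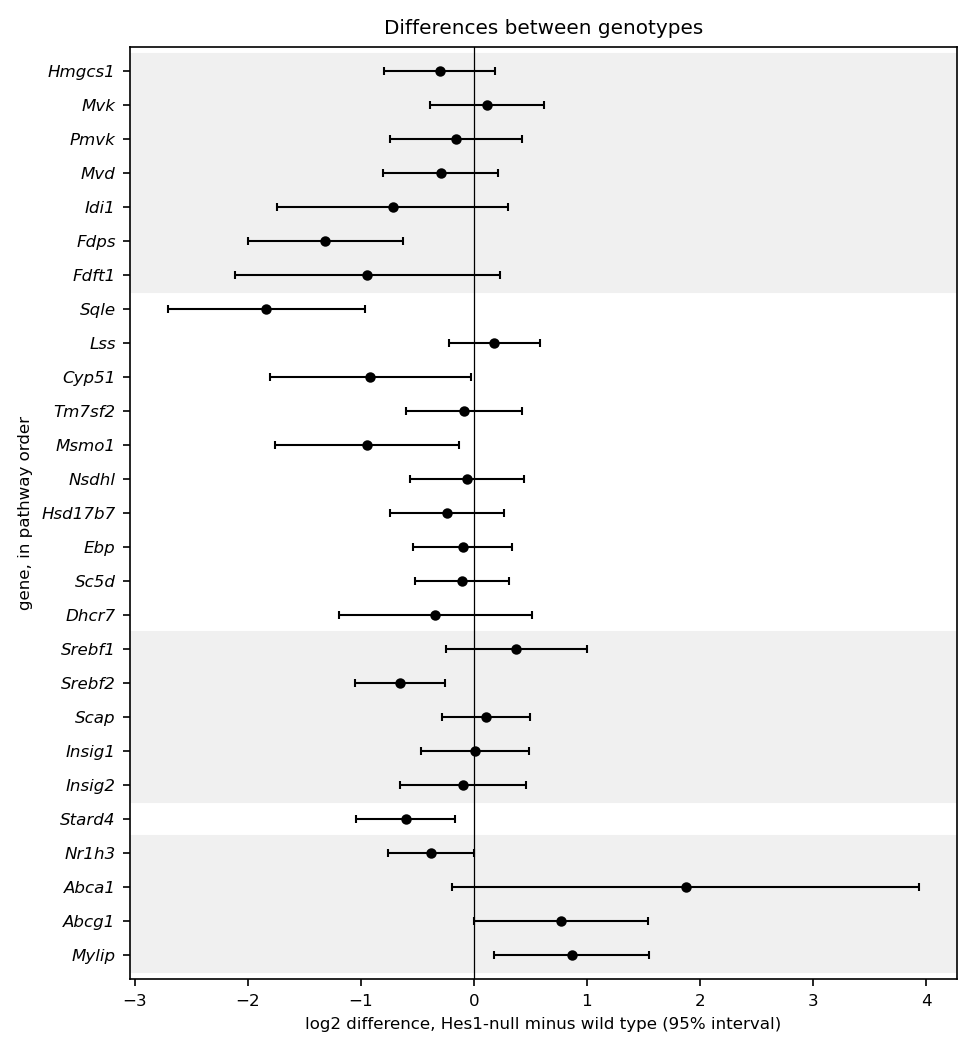
Log2 difference, Hes1-null minus wild type, of the 27 measured genes in pathway order, with the 95% interval from limma as bars (n = 2 arrays per genotype). The intervals of Sqle (-2.71 to -0.96), Fdps (-2.00 to -0.63) and Srebf2 (-1.05 to -0.25) lie below 0, as do those of Cyp51, Msmo1 and Stard4. Those of Abcg1 and Mylip lie above 0, while that of Abca1 runs from -0.19 to 3.94. The intervals are not adjusted for the number of genes.

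The SREBP genes themselves went opposite ways. Srebf2 lay at 8.99 and 8.82 on the Hes1-null arrays, against 9.57 and 9.55 on the wild-type arrays. The groups were well apart and each was narrow, the Hes1-null arrays differing by 0.17 and the wild-type arrays by 0.02. The difference was -0.65 ± 0.16 (95% interval -1.05 to -0.25, 1.57-fold lower, unadjusted p = 0.00788, adjusted p = 0.323 by limma). Unlike Dhcr7 or Fdft1, Srebf2 was low to a similar extent on both Hes1-null arrays, -0.57 and -0.74 from the wild-type mean. Srebf1, which LXRs induce, lay at 8.55 and 9.18 in Hes1-null marrow, against 8.51 and 8.47 in wild type. Replicate 1 was barely above wild type, replicate 2 was 1.62-fold above its mean, and the difference was 0.38 ± 0.25 (adjusted p = 0.783 by limma).

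The sterol sensor genes lay close to wild type. Scap gave 0.11 ± 0.16, and Insig1, itself a classic SREBP target, gave 0.01 ± 0.19 with a 95% interval of -0.47 to 0.49. Insig1 levels were 9.42 and 9.33 in Hes1-null marrow, against 9.55 and 9.17 in wild type, so both Hes1-null arrays lay between the wild-type ones. Insig2 gave -0.10 ± 0.22. Stard4, a cytosolic sterol carrier gene also known as an SREBP2 target, followed the low enzymes instead. It lay at 7.07 and 6.77 in Hes1-null marrow, against 7.54 and 7.51 in wild type. Its arrays did not overlap, and the difference was -0.60 ± 0.18 (unadjusted p = 0.0164, adjusted p = 0.446 by limma).

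**Figure D4:**
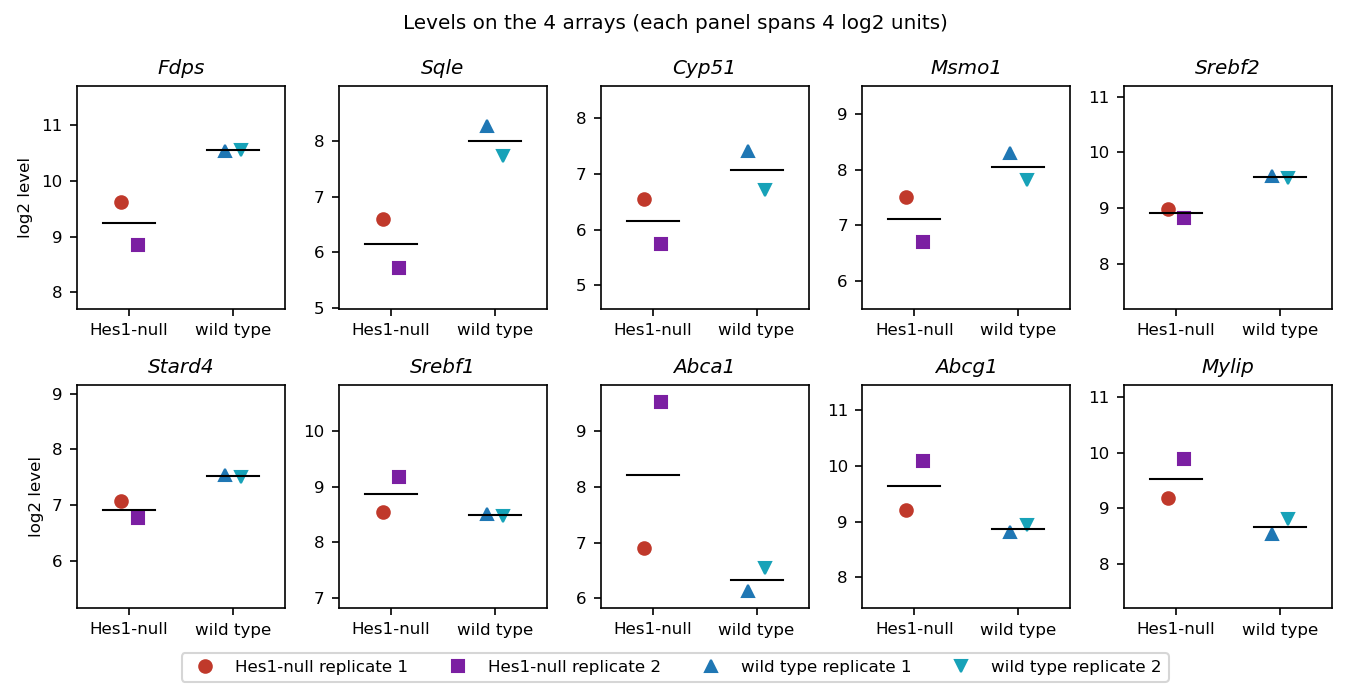
Log2 levels of 10 members on each array, with Hes1-null left of wild type, points for single arrays and bars for genotype means. Every panel spans the same 4 log2 units. Fdps, Sqle, Cyp51, Msmo1, Srebf2 and Stard4 lie lower on both Hes1-null arrays. Abca1 reaches 9.53 on Hes1-null replicate 2, against 6.13 and 6.55 in wild type.

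Of the LXR genes, the only receptor gene measured was slightly low, and the targets Abca1, Abcg1 and Mylip were high. None passed the adjusted test by limma, and Pltp, another gene that LXRs induce, was lower, as given below. Nr1h3, encoding LXR alpha, lay at 5.55 and 5.82 on the Hes1-null arrays, against 6.09 and 6.04 on the wild-type arrays, a difference of -0.38 ± 0.15 (unadjusted p = 0.0512, adjusted p = 0.607 by limma) without overlap. Abca1, the transporter gene that loads cholesterol onto apolipoproteins, lay at 6.90 and 9.53 in Hes1-null marrow, against 6.13 and 6.55 in wild type. Both Hes1-null arrays were higher, but by very different amounts, 1.47-fold over the wild-type mean on replicate 1 and 9.12-fold on replicate 2. The gap of 2.63 between the Hes1-null arrays exceeded the genotype difference of 1.87 ± 0.82 (95% interval -0.19 to 3.94, adjusted p = 0.637 by limma).

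Abcg1, which encodes a transporter that passes cholesterol to lipoprotein particles, lay at 9.21 and 10.08 in Hes1-null marrow, against 8.82 and 8.93 in wild type. Mylip, also called Idol, encodes a ubiquitin ligase that LXRs induce and that degrades lipoprotein receptors. It lay at 9.19 and 9.88, against 8.54 and 8.80 in wild type. In both genes the Hes1-null arrays were above the wild-type arrays, again more so on replicate 2. The differences were 0.77 ± 0.31 for Abcg1 (unadjusted p = 0.0495, adjusted p = 0.602 by limma) and 0.87 ± 0.27 for Mylip (unadjusted p = 0.0220, adjusted p = 0.477 by limma).

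The Hes1-null arrays were therefore set against wild type separately. They share the wild-type arrays, so the values stand side by side and are not independent of each other. On Hes1-null replicate 2 the median of the 17 enzymes was -0.45 from the wild-type mean, and 16 of them were below both wild-type arrays, where 40.0% of all genes were. On replicate 1 the median was -0.03, and 7 of 17 were below both, where 44.3% of all genes were. Of the 17, 16 were lower on replicate 2 than on replicate 1, where 43.6% of all genes were. For Abca1, Abcg1 and Mylip the medians were 1.21 on replicate 2 and 0.52 on replicate 1.

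The test followed the same split. Without Hes1-null replicate 1, limma called 6 members lower (Fdps, Fdft1, Sqle, Dhcr7, Srebf2 and Stard4) and 3 higher (Abca1, Abcg1 and Mylip), against 3.44% and 1.57% of all genes. Their adjusted p-values ran from 0.0303 for Fdps to 0.0499 for Stard4. In that fit the lone Hes1-null array is assumed to vary as the wild-type arrays do. Without Hes1-null replicate 2, 0 members were called by limma, against 0.0251% of all genes lower and 0.0502% higher, and the enzyme median was -0.03. There 10 of the 17 enzymes had a negative difference, against 56.1% of all genes, and 5 members were lower and 3 higher at an unadjusted p of 0.05, against 8.14% and 8.68% of all genes. Without Hes1-null replicate 1, 16 of 17 were negative, against 48.7% of all genes, and 12 members were lower and 4 higher at an unadjusted p of 0.05, against 16.3% and 12.7% of all genes. Without wild-type replicate 1, 2 members were lower and 0 higher at that p, against 2.3% and 1.25% of all genes. Without wild-type replicate 2, 4 were lower and 1 higher, against 2.03% and 1.3%. The low values of Fdps (-0.93), Sqle (-1.39), Msmo1 (-0.54), Cyp51 (-0.51), Srebf2 (-0.57), Stard4 (-0.45) and Nr1h3 (-0.51) were still seen without Hes1-null replicate 2. In the same fit that of Fdft1 shrank to -0.22 and that of Idi1 to -0.15.

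**Figure D5:**
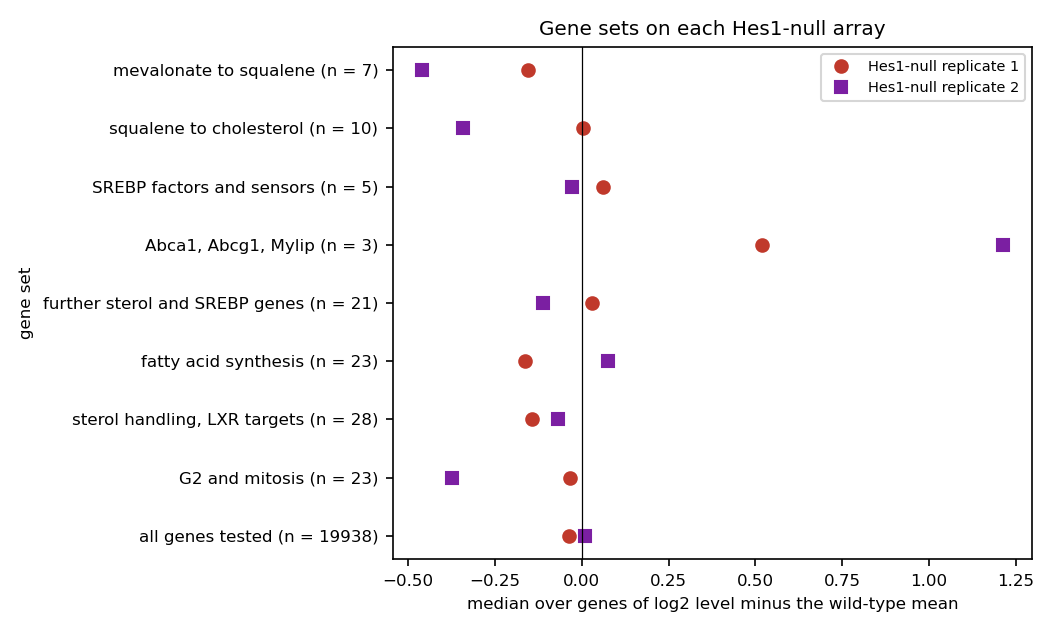
Median over the genes of each set of the log2 level minus the wild-type mean, on Hes1-null replicate 1 (circles) and replicate 2 (squares). The number of measured genes is given beside each set. The G2 and mitosis set, at -0.03 and -0.37, lies close to both enzyme groups, and all genes tested lie near 0.

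Other genes of sterol and lipid metabolism did not share a direction. Among 21 measured genes of further sterol synthesis and SREBP processing, 0 passed the test over all genes by limma, with a median difference of -0.10. At an unadjusted p of 0.05 by limma, 0 were lower and 2 higher, against 4.78% and 3.51% of all genes. The gene of the membrane protein Pgrmc1, a known partner of sterol-metabolising cytochromes (1.02 ± 0.21) and the pseudokinase gene Trib1 (1.65 ± 0.43) had the smallest p-values, followed by Ufd1 (0.40 ± 0.17). Tmem97, known in human cells as an SREBP2 target, lay at 10.79 and 9.53 in Hes1-null marrow, against 10.94 and 10.85 in wild type, which puts replicate 2 lowest, as for most enzymes. Of 23 fatty acid synthesis and SREBP1 target genes, 0 passed by limma, and the median was -0.07. At an unadjusted p of 0.05 by limma, 2 were lower and 3 higher, against 4.78% and 3.51% of all genes. The list included Elovl7 (-1.03 ± 0.18), Pgd (-0.52 ± 0.10), Scd2 (0.59 ± 0.15) and Acss2. Acss2, which makes acetyl-CoA from acetate and is a known SREBP target, went against the enzymes. It lay at 7.15 and 8.03 in Hes1-null marrow, against 6.29 and 5.87 in wild type, a difference of 1.51 ± 0.33 (adjusted p = 0.265 by limma).

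Among 28 measured genes of sterol uptake, trafficking, esterification and LXR response, 1 passed by limma, Smpdl3a. Smpdl3a, a phosphodiesterase gene described in human macrophages as induced by LXR agonists, rose, at 11.11 and 11.23 in Hes1-null marrow, against 6.41 and 6.92 in wild type (4.50 ± 0.22, adjusted p = 0.0141). It had been put on the list with its value known. The list as a whole had a median difference of -0.09. At an unadjusted p of 0.05 by limma, 6 of its genes were lower and 4 higher, against 4.78% and 3.51% of all genes. The oxysterol-binding protein gene Osbpl8 gave -0.69 ± 0.15 and the sterol transfer gene Gramd1c gave 0.72 ± 0.16. The lipid scavenger receptor gene Cd36 gave -0.80 ± 0.14, from levels of 3.52 and 3.73 in Hes1-null marrow, against 4.51 and 4.34 in wild type, which is about the level of the Y-linked genes. Pltp, a lipid transfer protein gene that LXRs induce, differed by -0.55 ± 0.19, opposite to Abca1 and Abcg1. It is named outside the rule for named genes, after its value was seen.

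Markers of proliferation and of other cell states moved beside these genes. All 23 measured of 24 listed G2 and mitosis genes were below both wild-type arrays on Hes1-null replicate 2, where 40.0% of all genes were. On replicate 1 this held for 11, where 44.3% of all genes were. None passed the adjusted test by limma, and the median difference was -0.17. At an unadjusted p of 0.05 by limma, 1 was lower and 0 higher, against 4.78% and 3.51% of all genes. Kif23, Mki67, Top2a and Anln gave -0.47 ± 0.18, -0.33 ± 0.13, -0.46 ± 0.21 and -0.44 ± 0.21. The summed intensity of the list was 26981 and 21171 on the Hes1-null arrays, against 27315 and 27109 on the wild-type arrays. Like the enzymes, the list was thus low mainly on replicate 2. Its part in the enzyme values was not tested.

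Of the 16 immediate early genes, 15 had both Hes1-null arrays above both wild-type arrays, where 17.4% of all genes did. The exception was Egr2, at 6.03 and 6.61 in Hes1-null marrow, against 6.08 and 6.01 in wild type. The list summed to 14946 and 24536 on the Hes1-null arrays, against 5568 and 6207 on the wild-type arrays. Jun alone of them passed the test over all genes (2.70 ± 0.16, adjusted p = 0.0231 by limma). Their sum was the larger on replicate 2, as were Abca1, Abcg1 and Mylip. For neutrophil markers, 13 of 13 listed were measured, and they summed to 21020 and 20830 on the Hes1-null arrays, against 36470 and 42611 in wild type. Monocyte and macrophage markers, 10 of 12 measured, summed to 4597 and 4739, against 7049 and 7059. These sums were low on both Hes1-null arrays to a similar extent, but not every marker was. Mpo was -1.02 from the wild-type mean on replicate 1 and -2.63 on replicate 2, while S100a9 was -2.23 and -0.60. Replicate 2 was below replicate 1 for 3 of 13 neutrophil and 4 of 10 monocyte and macrophage markers. The same held for 16 of the 17 enzymes and 43.6% of all genes. Among these markers Vcam1 (-2.62 ± 0.17) and Ltf (-2.77 ± 0.23) fell by the adjusted test of limma. A positive difference was found for 2 of 13 neutrophil and 2 of 10 monocyte and macrophage markers. They were Mmp8 (0.95 ± 0.40), Ctsg (0.28 ± 0.16), Cd68 (0.23 ± 0.10) and C1qa (0.01 ± 0.14). The other marker lists had median differences of -0.28 (erythroid, 4 of 8 measured), -0.15 (B cells, 5 of 6), -0.34 (T and NK cells, 7 of 7), -0.61 (megakaryocytes, 4 of 5) and -0.30 (stroma and endothelium, 7 of 7). The part of these cell types in the values of the sterol genes was not tested.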

How the data were processed

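RNA of leukemic whole bone marrow was measured on MoGene-1_0-st-v1 arrays, 1 per sample. The deposited intensities are probe set values for which the submitters' processing notes name RMA and Affymetrix Expression Console, without versions. They are linear (array medians 65.0 to 67.3), so log2 was taken with nothing added. The arrays carry the authors' scaling, and a difference in total RNA would not show. The number of arrays limits the precision. All 4 sample columns were used, with 0 left out. Of 35556 probe sets, 21789 had 1 symbol, 1621 several and 12146 none in the annotation. The probe set with the highest mean stood for each of 999 genes with more than 1.

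All 19938 genes were fitted with limma 3.58.1 in R 4.3.3 (eBayes with intensity trend, two-sided, genotype as the only term), with Benjamini-Hochberg adjustment over all genes and a threshold of 0.05. The test was also run on simulated data in which both genotypes had the same spread. The Hes1-null arrays here were further apart than the wild-type arrays, so that run does not check this case. An exact permutation of 2 against 2 arrays cannot go below 0.333, so medians are given without a test. Replicate numbers are not stated to pair samples, and same-numbered deviations correlated at 0.05 across genes.

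The members and lists were chosen with earlier results of these data known. All members are accounted for. Other list genes were named if past the threshold or among the smallest unadjusted p of their list. Pltp, Egr2, Mpo, S100a9, Mmp8, Ctsg, Cd68 and C1qa were named outside this rule, with their values known. Hes1 and Xist are on no list.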

Additional observations from a re-analysis of the deposited data

How the results depend on the processing

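No member passed the adjusted threshold in limma's main setting, and over the 14 alternatives 19 of the 27 kept the sign of their difference in every one. The number of all genes called was 29. It was 89 with the replicate number as a replicate block, 46 after a further quantile normalization, 45 with array weights, 17 among genes at or above the 25th percentile of level and 5 at or above the median level, and 6 (without wild-type replicate 2) to 999 (without Hes1-null replicate 1) with an array left out. The number of members called was 1 with the replicate block, Sqle (adjusted p = 0.0292), and 0 to 9 with an array left out, the 9 without Hes1-null replicate 1. It was 0 in the other alternatives. The labels do not say what a replicate number shares, and the deviations of same-numbered arrays correlated at 0.05, so the block changes are given as values. The median difference over the members was -0.15 and ran from -0.35 (without Hes1-null replicate 1) to 0.041 (without Hes1-null replicate 2) with an array left out. That of the enzymes was -0.29 and ran from -0.45 to -0.034. That of Abca1, Abcg1 and Mylip was 0.87 and ran from 0.52 to 1.21.

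Signs turned only with an array left out, in 8 members, of which Dhcr7 had the largest main difference (-0.34). Mvk ran from -0.089 to 0.32, Insig1 from -0.18 to 0.20, Pmvk from -0.46 to 0.15, Tm7sf2 from -0.25 to 0.077, Nsdhl from -0.24 to 0.12, Ebp from -0.24 to 0.041, Dhcr7 from -0.84 to 0.16 and Insig2 from -0.35 to 0.16. The cause was not tested. Pmvk and Nr1h3 gave no value at the median level filter. The deposited values hold no detection calls, so signal over background is unknown.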
